A study of Mus musculus with 12 samples.

Results

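The 34 genes described here carry the response of cells to a shortage of amino acids and to related stresses, with the transcription factor ATF4 at its centre. They were taken by name as ATF4 itself, its known targets, and genes of serine, proline, asparagine and one-carbon synthesis, amino acid transport and tRNA charging. The table held 55401 genes, and 35 of its rows carried a member's name. The extra row was a second entry for Ddit3 without a read in any library. RNA was measured in 12 libraries of airway organoids grown from primary lung epithelial cells of adult C57BL/6J mice, 6 with laser ablation and 6 controls. All organoids carried a lentiviral vector in which the p63 promoter drives a Histone2A-mCherry fusion protein, so the label marks cells in which that promoter is active. In the ablation group, a femtosecond laser ablated 10 neighboring cells per organoid, while control organoids lost none. In both groups a dish held 45 organoids, which were pooled to a single library. The medium of both groups was replaced by unsupplemented FluoroBrite DMEM 1 h before the laser treatment, and harvest followed at 4.5 h after it. The comparison addresses changes in transcription between ablated and untreated organoids in the course of repair.

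In this response, uncharged tRNA activates the kinase GCN2, which phosphorylates the translation initiation factor eIF2. Related kinases do the same after protein misfolding in the endoplasmic reticulum, viral infection or heme shortage. Most translation then slows, while the Atf4 messenger is translated better. ATF4 pairs with C/EBP proteins, binds C/EBP-ATF response elements and raises transcription of transporters, enzymes of amino acid synthesis, tRNA synthetases and its own feedback regulators. Since ATF4 is controlled in large part by translation, the Atf4 messenger is not a measure of ATF4 protein.

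Ablation and control libraries carry the same numbers (1, 3, 4, 5, 6 and 7), and both libraries with the same number come from the same passage and day of culture, so each number stands for a pair. Pairs 1, 3 and 5 have consecutive library numbers and form library set 1, and pairs 4, 6 and 7 form library set 2. The titles of controls 4, 6 and 7 contain the word ablation, while their treatment label names them as controls, and they were taken as controls. Ablation 1 stood apart from the other ablation libraries for several members. Values are normalized counts, the read counts of a library divided by its DESeq2 size factor, which summed to between 27297950 and 28504390 per library. The epithelial and basal markers were high in every library, with the 4 basal markers (Krt5, Krt14, Trp63 and Krt15) summing to between 458360 and 606660 normalized counts. The 3 secretory markers summed to between 26204 and 78618 and the 3 ciliated markers to between 10181 and 15311 normalized counts. Nearly all of these sums came from Cyp2f2 (26190 to 78600) and Tubb4b (10170 to 15300). Within these lists Scgb3a2 reached at most 21.5 and Foxj1 at most 18.1, and Scgb1a1 and Dnah5 stayed under 10 in all libraries. The 4 leukocyte markers summed to between 133 and 174 after ablation and between 144 and 222 in controls, with Cd3e under 10 throughout. The 4 fibroblast markers summed to at most 48.3 and the 3 endothelial markers to at most 14.3, and none of the 3 alveolar type II markers reached 10. In such bulk libraries, fewer cells of a type and less RNA per cell cannot be told apart.

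All 34 members passed the minimum for testing (10 normalized counts or more in 6 or more libraries), as did 13792 genes in all. Per kilobase of annotated exon, the members had a median control level of 1903 normalized counts, compared with 169 over all tested genes. Ddit4, a stress-induced inhibitor of the growth kinase mTORC1, stood highest at 11190 ± 1416 normalized counts per kilobase (SD, n = 6), above 99.3% of the tested genes. It was followed by the asparaginyl-tRNA synthetase Nars at 8917 ± 666 and by Atf4 at 7411 ± 782 normalized counts per kilobase. The next 3 members were the serine pathway genes Shmt2 (6138 ± 1312) and Psat1 (5718 ± 596) and the stress protein gene Nupr1 (5713 ± 989 normalized counts per kilobase), whose intervals of mean ± SD overlapped each other. Along the whole order of 34 levels, the intervals of 5 of 33 neighbours did not overlap, namely Ddit4 and Nars, Nars and Atf4, Slc3a2 and Trib3, Mthfd2 and Aars, and Ppp1r15a and Pycr1. At the lower end stood the proline synthesis gene Pycr1 (295 ± 37.4) and the lipoprotein receptor gene Vldlr (263 ± 22.2 normalized counts per kilobase), at percentiles 64.7 and 61.6 of the tested genes, while every other member was at 84.1 or above.

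**Figure D1:**
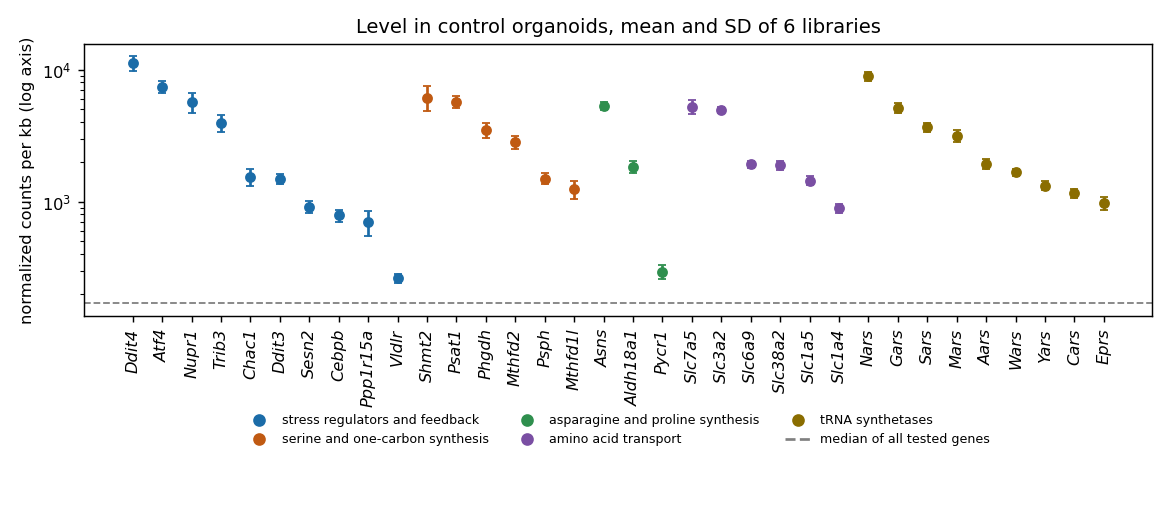
Mean level of each of the 34 genes in the 6 control libraries, in normalized counts per kilobase of exon on a log axis, with bars of 1 SD and colors for the functional groups. All 34 means lie above the dashed line, the median of all tested genes (169), and Vldlr and Pycr1 lie closest to it.

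In these libraries of whole organoids, the members did not move as a block at 4.5 h after ablation. The authors expected mainly cells close to the damage to take part early, and thus small changes in such libraries. The log2 mean was higher after ablation for 20 members and lower for 14, against a lower mean in 51.5% of all tested genes, and the median log2 fold change was 0.014. This tally turned with the setting, to 19 lower without pair 7 and to 20 lower with edgeR on the 9 libraries with recovered reads. By functional group, this median ran from -0.16 for the serine and one-carbon genes to 0.093 for the stress regulators. In the model with condition and library set, limma gave an adjusted p-value under 0.05 for none of the 34 members and for none of the 13792 genes (0%), with a lowest adjusted p-value over all genes of 0.0638. An unadjusted p-value under 0.05 was reached by 7 members, where 7.85% of all genes reached it. In the paired model, in which the pair takes the place of the library set, Vldlr and Nupr1 were higher after ablation with an adjusted p-value under 0.05 (0.674% of all genes) and Pycr1 was lower (0.413% of all genes). When variances were moderated without trend and robust estimation, none of the 34 members and no other gene passed in the paired model. Among genes with an unadjusted p-value under 0.05, 7 members were higher in that model (8.78% of all genes) and 8 lower (8.86%). For no member did the 6 ablation libraries lie wholly above the 6 controls (0.247% of all genes) or wholly below them (0.21%).

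**Figure D2:**
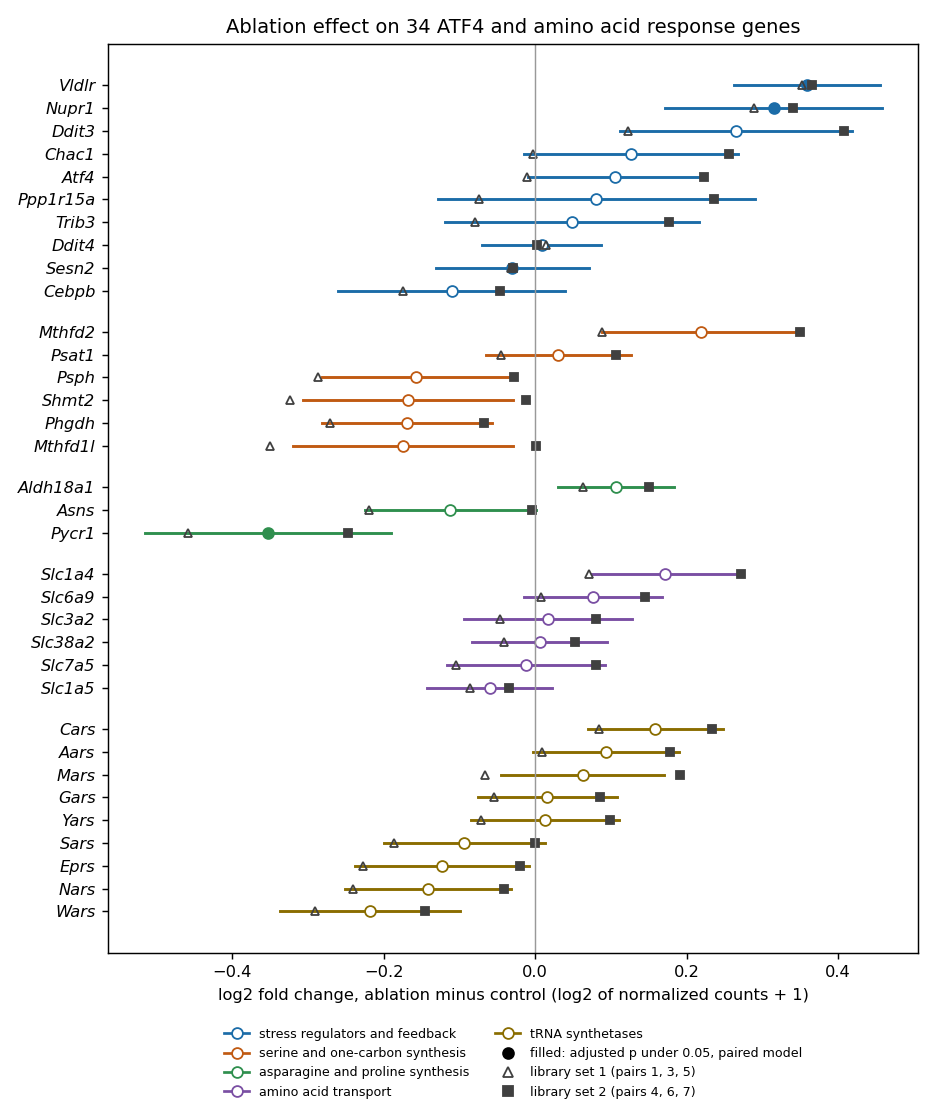
Log2 fold change (ablation minus control, log2 of normalized counts plus 1) of the 34 genes by functional group. Circles show the value over 6 pairs with the 95% interval of the paired model, filled where the adjusted p-value was under 0.05 (Vldlr, Nupr1 and Pycr1), and triangles and squares show the mean of library sets 1 and 2, of which set 2 lies further to the right for 33 of 34 genes.

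All 3 of these genes hold a C/EBP-ATF response element next to a transcription start in the mouse reference. The element was searched as TGATGNAA on both strands, from 250 bases before to 50 bases after the starts listed by RefSeq (GRCm38.p6). A promoter was listed for 28 of the 34 members, and 10 of the 28 (35.7%) held the element, compared with 2.79% of 9978 tested genes with a promoter and 4.51% of all 27025 genes in the table. The members were picked as genes of this response, so a high share describes the choice, and a match in letters is no evidence of binding. Sites are shown for some of these genes, because they match this element in letters, and because they differ in the base at N. Each is written as 30 bases, 5′ to 3′ along the strand that reads TGATGNAA, with the element in capitals.
Vldlr: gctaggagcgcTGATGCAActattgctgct
Nupr1: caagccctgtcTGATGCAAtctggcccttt
Pycr1: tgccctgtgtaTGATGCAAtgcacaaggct
Slc1a4: caggctggagaTGATGCAAcgcaggaggca
Chac1: cctggcaggagTGATGCAAcggcagggaag
Yars: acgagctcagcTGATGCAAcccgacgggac
Asns: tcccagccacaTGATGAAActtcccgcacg
Gars: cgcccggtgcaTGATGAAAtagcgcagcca
Trib3: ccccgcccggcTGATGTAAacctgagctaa

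The Vldlr site (chr19:27216809-27216838, minus strand) began 200 bases before a listed start and lay inside the gene as annotated (chr19:27216484-27254231, plus strand), since an earlier start is also listed. The Nupr1 site (chr7:126625562-126625591, plus strand) lay 110 bases before a start, likewise inside the annotated gene (chr7:126623249-126630861, minus strand). The Pycr1 site (chr11:120643833-120643862, minus strand) lay 103 bases before the start, upstream of the gene (chr11:120635712-120643769, minus strand). In Slc1a4 (chr11:20332699-20332728) the element began 4 bases before the start and in Asns (chr6:7693214-7693243) 23 bases before it. The 10 members with the element had a median log2 fold change of 0.07, with 8 higher and 2 lower (Asns and Pycr1). The 18 members whose promoters lacked it had a median of 0.0071, with 10 higher and 8 lower. The 6 members without a listed promoter had a median of -0.036, with 2 higher and 4 lower. In library set 1 the median was -0.029 with the element and -0.046 without it, and in set 2 it was 0.18 and 0.028. Whether the element bears on these values was not tested. Atf4, Ddit3 and Mthfd2 held none in this window.

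Among the 10 stress regulators and feedback genes, 8 were higher and 2 lower after ablation, with a median log2 fold change of 0.093. Vldlr codes for the very low density lipoprotein receptor, which takes up triglyceride-rich particles. Its normalized counts were 2341 to 2844 in controls (median 2724) and 2641 to 3701 after ablation (median 3520.2). Ablation 1 was the lowest ablation library and fell within the control range, while the other 5 ablation libraries lay above every control. The mean rose from 2647 ± 224 to 3407 ± 395 normalized counts (SD, n = 6), a log2 fold change of 0.36 (SE 0.045 in the paired model), and all 6 pairs were higher. The limma adjusted p-value was 0.00416 in the paired model and 0.192 in the library set model. The effect was nearly equal in both library sets, at 0.35 in set 1 and 0.37 in set 2 (difference 0.013, SE 0.091), and the paired call was kept whichever pair was left out, with adjusted p-values from 0.00408 to 0.0370.

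Nupr1, a small chromatin-associated stress protein, ranged from 10819 to 17399 normalized counts in controls (median 14018) and from 12375.5 to 23279 after ablation (median 17046). The groups overlapped widely, yet within pairs the ablation library was higher in 5 of 6, with pair 1 the exception. The mean rose from 14361.5 ± 2485 to 18035.5 ± 4137 normalized counts (SD, n = 6), a log2 fold change of 0.31 (SE 0.065 in the paired model). The limma adjusted p-value was 0.0451 in the paired model and 0.632 in the library set model. Without pair 1 the paired value was 0.00408, and without any of the other pairs it was above 0.05, up to 0.185 without pair 4.

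Atf4 itself ranged from 15393 to 20393 normalized counts in controls (median 17000.5) and from 13852 to 21061.5 after ablation (median 19511.5). Ablation 1 was the lowest of all 12 libraries and ablation 3 the highest, so the ablation range enclosed all controls. Atf4 averaged 17476 ± 1844 in controls and 18890.4 ± 2584 normalized counts after ablation (SD, n = 6), a log2 fold change of 0.11 (SE 0.053 in the paired model), with limma adjusted p-values of 0.823 and, in the paired model, 0.320. In 4 of 6 pairs Atf4 was higher after ablation, and pairs 1 and 5 were lower. Its log2 fold change was -0.011 in set 1 and 0.22 in set 2.

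Ddit3, the gene of the stress factor CHOP, is named here after its values were seen. It ranged from 2196 to 2890.1 normalized counts in controls and from 2056 to 3782 after ablation. As for Vldlr, ablation 1 stood apart, here below every control, while the other 5 ablation libraries were above every control. The log2 fold change was 0.27 (SE 0.070 in the paired model), with limma adjusted p-values of 0.629 and, in the paired model, 0.0919. Ddit3 and the methionyl-tRNA synthetase Mars overlap by 68 bases on opposite strands, Cebpb overlaps Tmem189 by 908 bases and Psph overlaps Cct6a by 452, and whether strand was used in counting is not given in the sources used here.

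Chac1, which degrades glutathione, and Trib3, which binds ATF4 and restrains it, had log2 fold changes of 0.13 and 0.049. Ppp1r15a, the subunit that directs a phosphatase to eIF2 and so ends the response, had 0.081. All 3 were higher in the same 4 pairs as Atf4 and lower in pairs 1 and 5, and none passed the threshold in either model. Without pair 1 their values were 0.19 for Chac1, 0.14 for Trib3 and 0.19 for Ppp1r15a, and that of Atf4 was 0.16. Sesn2, a leucine sensor upstream of mTORC1, and Ddit4 lay near 0, at -0.030 and 0.0084. The member with the lowest value of the group was Cebpb, a C/EBP partner of ATF4. It ranged from 1017 to 1361 normalized counts in controls (median 1195) and from 973 to 1292 after ablation (median 1052). Its groups overlapped almost fully, with means of 1183 ± 125 and 1096 ± 119.9 normalized counts (SD, n = 6) and a log2 fold change of -0.11 (limma adjusted p = 0.740, and 0.435 in the paired model).

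**Figure D3:**
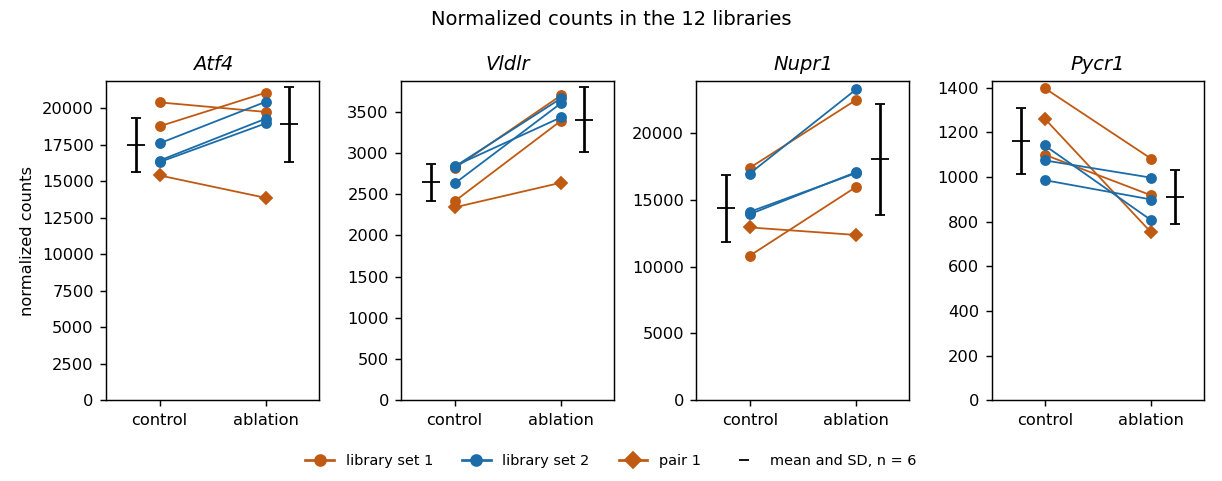
Normalized counts of Atf4, Vldlr, Nupr1 and Pycr1 in the 12 libraries, with a line joining the control and ablation library of each pair, colors for the library sets, diamonds for pair 1 and bars for mean and SD (n = 6). All 6 lines rise for Vldlr and all 6 fall for Pycr1, while pair 1 falls for Nupr1 and pairs 1 and 5 fall for Atf4.

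Of the 6 serine and one-carbon genes, 4 were lower and 2 higher after ablation, with a median log2 fold change of -0.16. None passed limma's adjusted threshold over all pairs, while 4 were lower and 1 higher with an unadjusted p-value under 0.05 in the paired model (8.86% and 8.78% of all genes). Phgdh, Psat1 and Psph carry out the steps from the glycolytic intermediate 3-phosphoglycerate to serine. Their log2 fold changes were -0.17, 0.031 and -0.16. Shmt2, which splits serine to glycine in mitochondria and passes on the one-carbon unit, had -0.17. The mitochondrial one-carbon enzymes downstream of it had log2 fold changes of opposite sign. Mthfd2 ranged from 8579 to 11577 normalized counts in controls (median 9560.1) and from 8076 to 12999.6 after ablation (median 11941). Ablation 1 was its lowest library of all, while 4 ablation libraries exceeded every control. Its means were 9801 ± 1072 and 11484 ± 1748 normalized counts (SD, n = 6), a log2 fold change of 0.22 (SE 0.060 in the paired model), with limma adjusted p-values of 0.651 and, in the paired model, 0.0970. Mthfd1l ranged from 4718 to 7123 normalized counts in controls (median 5298) and from 4277 to 5769.9 after ablation (median 4796). Ablation libraries 1, 4 and 5 were below every control and the other 3 lay among the controls. Its means were 5488 ± 887 and 4840.2 ± 566 normalized counts (SD, n = 6), a log2 fold change of -0.17 (SE 0.066 in the paired model), with limma adjusted p-values of 0.692 and, in the paired model, 0.204.

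The 3 genes of asparagine and proline synthesis included the member that fell most. Pycr1, the mitochondrial enzyme of the last step of proline synthesis, ranged from 986 to 1398 normalized counts in controls (median 1121) and from 752 to 1082 after ablation (median 909). Only ablation 3 and ablation 6 reached into the control range. From a control mean of 1160.2 ± 147 normalized counts it fell to 909 ± 121 (SD, n = 6 per group), a log2 fold change of -0.35 (SE 0.075 in the paired model). It was lower in all 6 pairs, as were 4.63% of all genes and no other member. The limma adjusted p-value was 0.0467 in the paired model and 0.448 in the library set model. The paired call was kept without pair 6 and without pair 7, but was lost without pair 1, 3, 4 or 5, with an adjusted p-value of 0.187 without pair 4. Aldh18a1, which carries out the first steps of the same pathway, had a log2 fold change of the opposite sign. It ranged from 6886 to 8829.6 normalized counts in controls (median 7131) and from 7086 to 9461 after ablation (median 7928.5). The groups overlapped over most of their range, but all 6 pairs were higher after ablation, as were 5.17% of all genes, and as were Vldlr and Slc1a4 among the members. Its means were 7475 ± 777 and 8050.2 ± 847 normalized counts (SD, n = 6), a log2 fold change of 0.11 (SE 0.036 in the paired model), with limma adjusted p-values of 0.745 and, in the paired model, 0.156. Asns, the asparagine synthetase, had a log2 fold change of -0.11 and was lower in 5 of 6 pairs.

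Of the 6 amino acid transporters, 4 were higher and 2 lower after ablation, with a median log2 fold change of 0.012. None passed limma's adjusted threshold, and Slc1a4 was the only 1 with an unadjusted p-value under 0.05 in the paired model. Slc1a4, an exchanger of alanine, serine and cysteine, ranged from 3166 to 3834 normalized counts in controls (median 3435) and from 3178 to 4148 after ablation (median 4104). Ablation 1 lay at the bottom of the control range and the other 5 ablation libraries above every control. Its means were 3498 ± 276 and 3945 ± 379 normalized counts (SD, n = 6), a log2 fold change of 0.17 (SE 0.044 in the paired model), with limma adjusted p-values of 0.628 and, in the paired model, 0.0818. The glutamine carrier Slc1a5 had the lowest value of the group, from 5429 to 6761 normalized counts in controls (median 5935) and from 4910.2 to 6753 after ablation (median 5801). Its groups overlapped nearly fully, and the log2 fold change was -0.060 (limma adjusted p = 0.862, and 0.443 in the paired model). Slc7a5 and Slc3a2, which together form the exchanger LAT1 for large neutral amino acids, had log2 fold changes of -0.012 and 0.017. Slc38a2, a sodium-coupled carrier of small neutral amino acids, had 0.0059, and the glycine transporter Slc6a9 had 0.076.

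Among the 9 tRNA synthetases, 5 were higher and 4 lower after ablation, with a median log2 fold change of 0.013. None passed limma's adjusted threshold, while 1 was higher (Cars) and 3 were lower (Wars, Nars and Eprs) with an unadjusted p-value under 0.05 in the paired model (8.78% and 8.86% of all genes). The cysteinyl enzyme gene Cars was the highest. It ranged from 7061.5 to 8354 normalized counts in controls (median 7381) and from 7048 to 9331 after ablation (median 8762). Ablation 1 was its lowest library, and 4 ablation libraries exceeded every control. The log2 fold change was 0.16 (SE 0.041 in the paired model), with limma adjusted p-values of 0.629 and, in the paired model, 0.0839. The tryptophanyl enzyme gene Wars was the lowest, with 5362 to 6247 normalized counts in controls (median 5752) and 3929 to 5476 after ablation (median 5254). Only ablation 3 and ablation 7 reached into its control range. The log2 fold change was -0.22 (SE 0.055 in the paired model), with limma adjusted p-values of 0.586 and, in the paired model, 0.0763. The genes of the alanyl (Aars), methionyl (Mars), glycyl (Gars) and tyrosyl (Yars) enzymes had log2 fold changes of 0.093, 0.063, 0.016 and 0.013. Those of the seryl (Sars), glutamyl-prolyl (Eprs) and asparaginyl (Nars) enzymes had -0.093, -0.12 and -0.14.

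The members' spread between pairs was close to that of all tested genes, which were not matched to the members in level. The range of the 6 pair means exceeded the absolute log2 fold change for 34 of 34 members, as for 98.6% of all genes, and its median was 0.38 for both the members and all genes. It was widest for Ppp1r15a (0.97) and Trib3 (0.79) and narrowest for Slc6a9 (0.17). The direction of the whole group differed between pairs. In pair 1 only 4 of 34 members were higher after ablation, with a median difference of -0.15 on the log2 scale. In pair 7 the count was 32 of 34, with a median difference of 0.15. Pairs 3, 4 and 6 had 18, 19 and 23 members higher, and pair 5 had 9. Over all tested genes the median difference of a pair stayed between -0.010 and 0.010. Ablation 1 was the lowest of the 12 libraries for 22 of 34 members, whereas it was the lowest for 14.3% of all genes. Control 3 was the highest for 13 members, against 15.9% of all genes. Without pair 1, the members' median log2 fold change was 0.040, and the paired model called 5 members, all higher after ablation (Cars, Ddit3, Mthfd2, Nupr1 and Vldlr, with 0.812% of all genes called higher), while Pycr1 no longer passed.

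**Figure D4:**
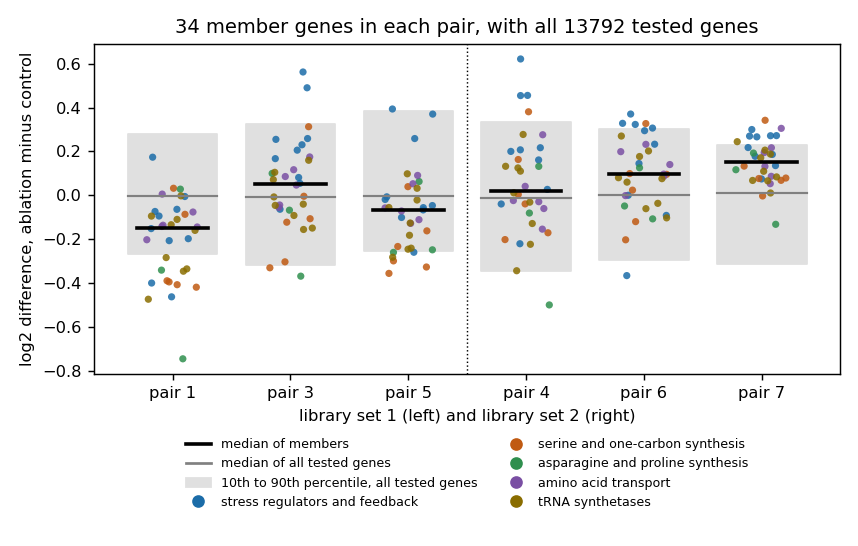
Log2 difference of ablation and control within each pair for the 34 genes (points, colors for the functional groups), with the members' median (black), the median of all 13792 tested genes (grey line) and their 10th to 90th percentile (grey box). The members' median lies lowest in pair 1 (-0.15) and highest in pair 7 (0.15), while the median of all genes stays near 0.

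The difference between pairs followed the library sets in part. In set 1, 24 of 34 members were lower after ablation (median log2 fold change -0.060), and in set 2, 12 of 34 (median 0.084). Over all tested genes the medians were -0.0046 in set 1 and -0.00066 in set 2. The signed log2 fold change was higher in set 2 than in set 1 for 33 of 34 members, Ddit4 being the exception, with a median difference of 0.19. Over all tested genes the median difference was 0.0062. Without pair 1 the count of members was 30 and their median difference 0.12. In a limma test of this difference with the pair as a term, 0 members had an adjusted p-value under 0.05, as did 0.00725% of all genes, and 17 had an unadjusted p-value under 0.05, against 7.88% of all genes. Of the 17, 5 were serine and one-carbon genes and 6 were synthetases. Mthfd1l differed most among the members, with log2 fold changes of -0.35 in set 1 and 0.00089 in set 2 (limma adjusted p of the difference = 0.340). Shmt2 had -0.32 and -0.012, and Mthfd2 had 0.088 and 0.35. Without pair 1, 3 members had an unadjusted p-value under 0.05 (5.79% of all genes), without pair 5 there were 5 and without pair 7 there were 6. When each set was fitted alone with the pair as a term, Mthfd1l was lower in set 1 with an adjusted p-value of 0.0389 (0.0508% of all genes), and Ddit3 (0.0329), Mthfd2 (0.0181), Nupr1 (0.0264) and Vldlr (0.0241) were higher in set 2 (0.544% of all genes). The library sets also differ in passage. The number that the titles add to passage P2 was 14, 14 and 15 for pairs 1, 3 and 5. For pairs 4, 6 and 7 it was 15, 16 and 16, so that library set and passage in large part cannot be told apart. Culture day differed between pairs as well. Pairs 1, 4 and 5, from days 14, 14 and 15, had median differences of the members of -0.15, 0.019 and -0.069. Pairs 6, 7 and 3, from days 18, 19 and 20, had 0.096, 0.15 and 0.050. Whether culture day bears on these differences was not tested.

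**Figure D5:**
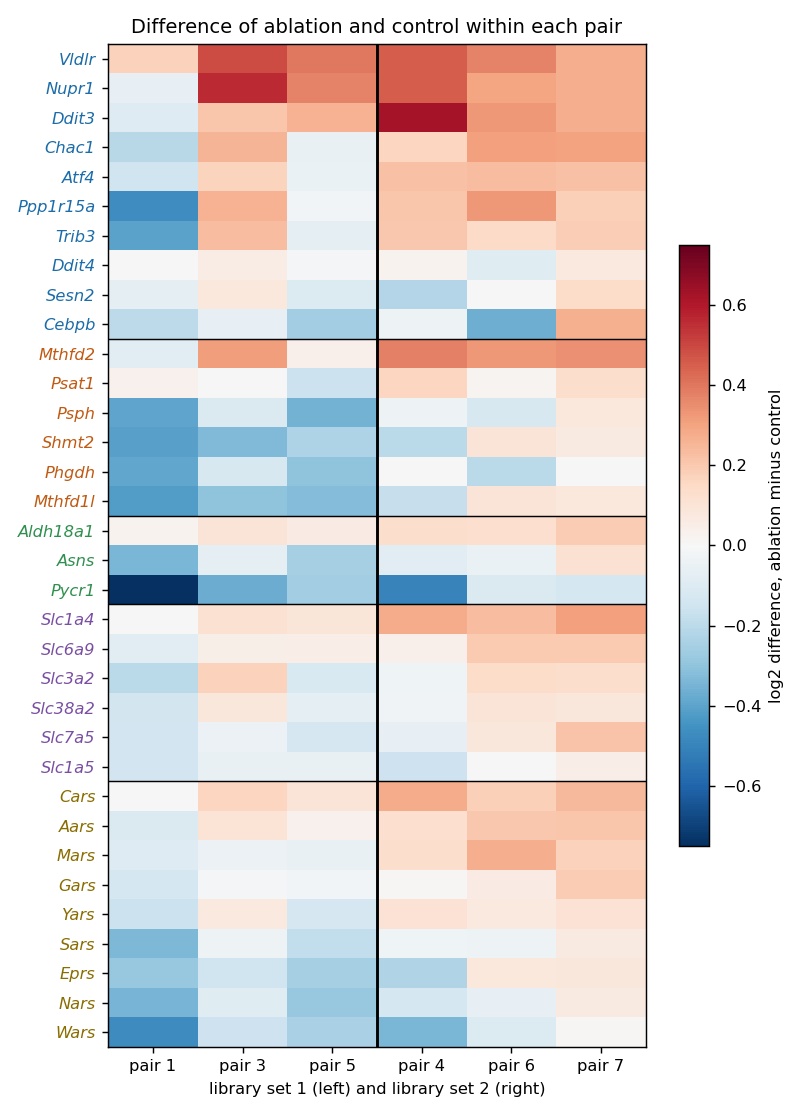
Log2 difference of ablation and control (color scale) for the 34 genes (rows, by functional group) in the 6 pairs (columns), with library set 1 on the left and set 2 on the right of the thick line. Vldlr is higher in all 6 columns and Pycr1 lower, and the column of pair 1 holds 30 of 34 genes with a lower value.

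Other genes of the pathway were described by lists without a member. In the library set model none of them had an adjusted p-value under 0.05. A list of 13 genes held the eIF2 kinases, eIF2 and its exchange factor, and also Ppp1r15b, Gcn1l1 and Impact as genes of eIF2 control. Of the 13, 10 were lower and 3 higher after ablation, with a median log2 fold change of -0.037. None of them passed in the paired model. At an unadjusted p-value under 0.05 in that model, 1 was higher (Ppp1r15b) and 2 lower (Eif2b3 and Gcn1l1), where 8.78% and 8.86% of all genes were. Among 17 other partners and targets of ATF4, 11 were higher and 6 lower, with a median of 0.099, and 4 rose in the paired model (0.674% of all genes). At an unadjusted p-value under 0.05, 7 were higher and 2 lower, where 8.78% and 8.86% of all genes were. The 4 genes were the cystine transporter gene Slc7a11 (0.30, limma adjusted p = 0.00899), the alanine transaminase gene Gpt2 (0.26, 0.0224), the AP-1 family factor gene Jdp2 (0.25, 0.0245) and Herpud1 (0.20, 0.0444), which acts in degradation of misfolded proteins of the endoplasmic reticulum. Slc7a11, Jdp2 and Herpud1 were higher in 6 of 6 pairs (5.17% of all genes) and Gpt2 in 5. Mthfd2l, a relative of Mthfd2, fell in the paired model, from 268 ± 27.6 to 215 ± 27.3 normalized counts (SD, n = 6), a log2 fold change of -0.32 (limma adjusted p = 0.0492). It was the only gene past the threshold among 10 tested genes of serine, one-carbon, glycine and proline metabolism, of which 7 were lower. In this list 1 was higher and 3 lower at an unadjusted p-value under 0.05 in the paired model (8.78% and 8.86% of all genes). None of the paired calls in these lists was kept with plain empirical Bayes, where no gene passed. Without pair 4, 8 of all tested genes passed and 0 of them were lower, so the call of Mthfd2l was lost. None of the 11 other cytosolic synthetases (median -0.079), 17 mitochondrial synthetases (median -0.00075) and 11 other amino acid transporters (median 0.032) passed in the paired model. At an unadjusted p-value under 0.05 in that model, 0, 1 and 1 of them were higher and 3, 2 and 0 lower (8.78% and 8.86% of all genes).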

How the data were processed

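Stranded libraries of poly(A) RNA were sequenced from both ends. The authors ran nf-core's pipeline for RNA-seq with GENCODE gene models of the mouse genome (GRCm38.p6). The deposited signal values are read counts that the authors scaled with 1 DESeq2 size factor per library (normalized counts). The deposited table also holds columns of the authors' own comparison (log2 fold changes, score columns with standard errors and Wald statistics, and p-values), which were not used. Whole read counts recovered from 9 libraries ranged from 23631212 to 29775699. For ablation 3, ablation 4 and control 4 no count model was run, since their scaling steps lie too near 1 to be accepted automatically.

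The members and gene lists were chosen with earlier results of these data known. Of 55401 listed genes, 13792 reached 10 normalized counts in 6 or more libraries and were tested. Log2 values (pseudocount of 1) were fitted with limma 3.58.1 in R 4.3.3, with trended and robust empirical Bayes moderation, with condition and library set as factors, and p-values were adjusted over all tested genes by the Benjamini-Hochberg method (threshold 0.05). The authors name a batch as second factor without saying what it was, and it was taken as the library set. Whether this was their batch is not known. Their own DESeq2 comparison reported differentially expressed genes, so the counts of the library set model do not stand for their result. The paired model (replicate block) replaces it with the pair. Samples of a number share passage, culture day and date in the labels. As a check, each sample's difference from its group mean was compared across genes. Within pairs 1, 3, 4, 5, 6 and 7, r was 0.62, 0.49, 0.21, 0.32, 0.38 and 0.33 (genes are no independent replicates here). Toward samples of other pairs the mean r was between -0.14 and -0.025. The differences of a group sum to 0 for each gene, so a positive r within a pair by itself lowers the r toward other pairs. The contrast is thus partly fixed in advance, and the library set was not removed first. Samples are separate dishes, and the labels do not say from how many animals the cells came. P-values of the library set model thus measure the spread between dishes of a library set. Those of the paired model measure the spread of the differences between the dishes of a pair. Neither can be taken for a spread between animals.

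Values in every library were summarised for Atf4, for members with an adjusted p-value under 0.05 in either model, for members whose 6 pairs moved 1 way, and for the highest and lowest log2 fold change of each functional group. Levels per kilobase were divided by the length of all annotated exons of a gene. Promoters are those of RefSeq, matched by gene symbol. The sites of 1 matched member are not reported here. The library set model, the paired model, the test of the difference between library sets and edgeR were tried on simulated data. The other settings were not. Alternatives were TMM and quantile scaling, pseudocounts of 0.5 and 5, other count minimums, plain empirical Bayes, each pair left out, each library set alone, and edgeR 4.0.16 on the recovered reads.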

Additional observations from a re-analysis of the deposited data

Results flagged for a closer look

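The 68 groups of 6 samples (34 members in both conditions) come from the same 12 libraries and are not independent. Of these groups, 7 held a sample far from the others, where chance gives about 1 in 20 for a single group. In 6 of the 7 it was ablation 1, which was the lowest ablation library with 13852 normalized counts for Atf4, 5209 for Trib3, 2641 for Vldlr, 8076 for Mthfd2, 3178 for Slc1a4 and 15519 for Aars. The seventh was control 3, with 26985 normalized counts for Shmt2, the highest of the controls. For Gars, the pairs of set 1 were all lower and those of set 2 all higher after ablation, a difference of 0.14 between the sets on the log2 scale (limma adjusted p = 0.684). Mars showed the same pattern, with a difference of 0.26 (limma adjusted p = 0.423).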

How the results depend on the processing

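No member was called in the library set model under any alternative, with all pairs or without 1 of them including edgeR on recovered reads (6 members with an unadjusted p-value under 0.05), and the count over all genes moved only without the filter on low values, to 3. In the paired model (replicate block), 3 members and 150 genes were called. Without the filter these counts were 6 (Cars, Phgdh, Pycr1, Slc1a4, Vldlr and Wars, but no longer Nupr1) and 356, with plain empirical Bayes 0 and 0, with set 1 alone 1 and 16, and with set 2 alone 4 and 109. With a pair left out, the paired model called 1 to 5 members and 8 to 176 genes, the fewest genes without pair 4. The count of 17 members with an unadjusted p-value under 0.05 for the difference between the library sets ranged from 3 to 21 with a pair left out and was 0 with no replicate block. The median log2 fold change of the members, 0.014, was -0.0059 without pair 7 and -0.025 with edgeR.

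For some single members the log2 fold change changed sign. With edgeR on recovered reads, which leaves out 3 libraries, they were -0.025 for Trib3, 0.0049 for Sesn2, -0.049 for Ddit4, -0.056 for Psat1, -0.015 for Slc3a2, -0.012 for Slc38a2, -0.026 for Gars and -0.048 for Yars. In set 1 alone they were -0.011 for Atf4, -0.079 for Trib3, -0.0029 for Chac1, -0.075 for Ppp1r15a, -0.045 for Psat1, -0.047 for Slc3a2, -0.041 for Slc38a2, -0.055 for Gars, -0.066 for Mars and -0.072 for Yars, and in set 2 alone 0.00089 for Mthfd1l and 0.081 for Slc7a5. With a pair left out, Sesn2 ranged from -0.063 to 0.0081, Ddit4 from -0.0048 to 0.028, Slc7a5 from -0.058 to 0.014, Slc3a2 from -0.014 to 0.061, Slc38a2 from -0.012 to 0.034, Gars from -0.019 to 0.046 and Yars from -0.0061 to 0.048. The cause was not tested. Of 340 values of single members under alternatives other than leaving out a pair or a library set, 329 kept their direction and side of the threshold, and 3 passed it newly, all in the paired model.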
